A study of Mus musculus with 6 samples.

Results

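Lysosomal hydrolases and lysosomal membrane proteins were examined in RNA sequencing libraries. By the study's account, these came from the RPE-choroid complex, the retinal pigment epithelium (RPE) with the vascular layer behind it. The set held 48 genes chosen by name, of which 43 had a row among the 16191 rows of the deposited expression table, and GLA, IDS, LAMP2, MCOLN1 and TFE3 were not analysed here. Per the study, the 3 libraries labelled AAV-PDGF-D came from C57BL/6J mice given a subretinal injection of an AAV8 vector. That vector carries the human PDGF-D coding sequence behind the human VMD2 promoter, which is active in RPE cells. The 3 libraries labelled AAV-GFP came from mice of the same strain given a vector with GFP. RNA was taken 4 weeks after injection in both groups. The study gives the age of the mice only at purchase, and nothing states whether each library is a separate mouse, so p-values measure only the spread between these libraries. The comparison asks how the transcripts of the lysosomal degradation system differ between libraries labelled for PDGF-D expression in RPE cells and those labelled for GFP.

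Lysosomes are acidic organelles in which proteins, glycans and lipids are broken down by soluble hydrolases, most of which are tagged with mannose 6-phosphate in the Golgi and carried to the lysosome by receptors. Membrane proteins line the organelle, export the products and take part in signalling, and the transcription factor TFEB switches on many of these genes together. RPE cells rely on this system heavily, since they take up and digest the shed outer segments of photoreceptors every day, and inherited loss of single hydrolases causes storage diseases that often reach the retina.

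The labels describe mouse tissue, whereas the rows of the table are human genes with human Ensembl identifiers. The values are FPKM, in which fragment numbers are divided by the length of the gene and by the size of the library, so that levels can be set against each other per length, but no counts came with them and the read depth is unknown. The PDGFD row, the gene that the vector carries, was at 5.24, 6.28 and 6.36 FPKM in the libraries labelled AAV-PDGF-D and at 6.87, 6.56 and 6.86 FPKM in those labelled AAV-GFP (log2 fold change -0.18, standard error (SE) 0.10, adjusted p = 0.213). The level of the transgene thus did not bear out the labels, and each direction given here is one between labels. Of 16 RPE marker genes, 9 reached 1 FPKM in each library, KRT8 and SERPINF1 included, while RPE65, the isomerase of the visual cycle, averaged 0.869 FPKM. A further 5 of the 16 were under 1 FPKM in every library, among them BEST1 and LRAT, which averaged 0.424 and 0.145 FPKM. Hemoglobin rows were present in AAV-PDGF-D replicate 3 and AAV-GFP replicate 1, where red blood cell markers summed to 422 and 340 FPKM, and were at or near 0 in the other 4 libraries.

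The lysosomal genes were expressed at high levels. Their median was 50.9 FPKM over the 42 genes with a mean of at least 1 FPKM, against 13.0 FPKM over all 11444 rows with such a mean. PSAP (ENSG00000197746), the precursor of the saposins that present sphingolipids to their hydrolases, averaged 1582 FPKM and ranked 26 among all rows. CTSD (ENSG00000117984), the aspartic protease cathepsin D, averaged 1318 FPKM and ranked 47. At the other end, TFEB averaged 1.66 FPKM, and CTSS, a cysteine cathepsin of antigen-presenting cells, averaged 0.166 FPKM, so that it was fitted but could not be called. CTSS was at 0.161, 0.163 and 0.206 FPKM in the AAV-PDGF-D libraries and at 0.157, 0.212 and 0.0970 FPKM in the AAV-GFP libraries, and these overlapped. Replicates were close to each other, with a median coefficient of variation of 3.86% among AAV-PDGF-D and 3.66% among AAV-GFP libraries, against 6.36% and 6.13% over all rows.

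**Figure D1:**
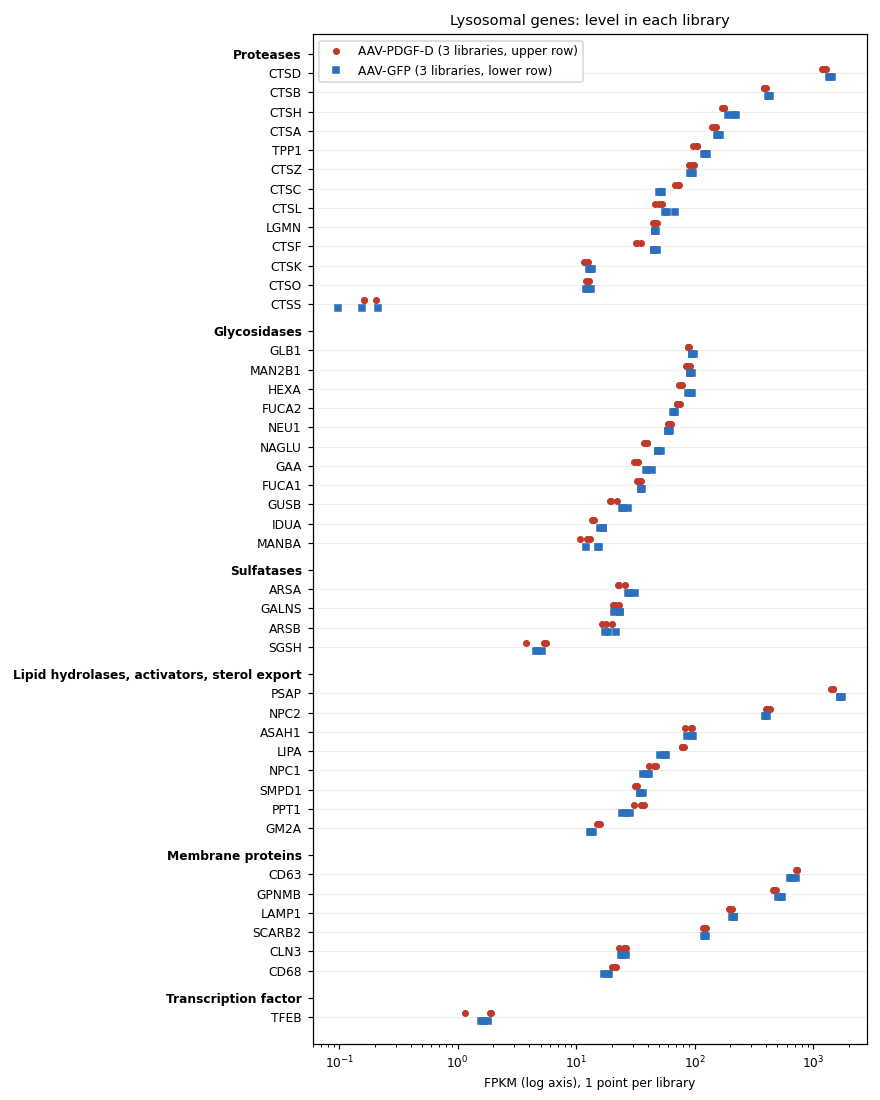
FPKM on a log axis of the 43 lysosomal genes with a row, grouped by role, with 1 red circle per AAV-PDGF-D library (upper) and 1 blue square per AAV-GFP library (lower). PSAP and CTSD stand at 1179 FPKM or higher in every library, CTSS stands below 1 FPKM in every library, and for most genes the shift between labels is small beside the distance between genes.

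Summed over the 43 genes, the lysosomal transcripts came to 6729, 6666 and 6711 FPKM in the AAV-PDGF-D libraries and to 7316, 7070 and 7381 FPKM in the AAV-GFP libraries, so that all AAV-PDGF-D sums lay below all AAV-GFP sums. As a share of the total FPKM this was 1.31% ± 0.0174 in AAV-PDGF-D and 1.44% ± 0.0254 in AAV-GFP libraries (SD, n = 3 each). PSAP and CTSD made up 39.4% to 41.1% of the sum in AAV-PDGF-D and 42.6% to 43.2% in AAV-GFP libraries. Without these genes the sums were 3966, 4015 and 4067 FPKM in AAV-PDGF-D and 4179, 4014 and 4235 FPKM in AAV-GFP libraries, and AAV-GFP replicate 2 then lay within the AAV-PDGF-D range. If the libraries hold RNA of a tissue, as the study states, fewer cells of a type and less RNA per cell cannot be told apart.

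None of the 42 genes was called at the study's thresholds, applied here with limma (adjusted p of at most 0.1, at least 1.5-fold, mean of at least 1 FPKM). Across all rows 2.01% were called higher and 1.75% lower. The study used DESeq2 and reported more differentially expressed genes than were called here, so its calls can differ from these. At an unadjusted p under 0.05 there were 25 of the 42 lysosomal genes, against 4429 of all 11444 rows. Of these 25 genes, 0 also differed at least 1.5-fold. At the same adjusted p with no fold minimum, 6 genes were higher with the AAV-PDGF-D label (CTSC, LIPA, PPT1, GM2A, NPC1 and CD68) and 15 were lower (CTSB, CTSD, CTSF, CTSH, CTSL, TPP1, GAA, GLB1, GUSB, HEXA, IDUA, NAGLU, ARSA, PSAP and GPNMB), and 21 did not pass. These are 14.3% higher and 35.7% lower, while 20.9% of all rows passed as higher and 11.7% as lower. The median SE was 0.0520 for the lysosomal genes and 0.0819 over all rows, so a change of a given size passed more readily among the lysosomal genes. The split depended on scaling. It was 4 higher and 18 lower when each library was scaled to the same sum (TPM) and 4 and 19 with median-of-ratios scaling. It was 2 and 23 when the respiratory chain genes were set equal. Over all rows the same scalings gave 15.9% higher and 13.7% lower, 15.9% and 15.5%, and 6.08% and 22.4%. Without both libraries that hold hemoglobin the split was 3 and 6, against 9.58% and 4.76% of all rows.

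All AAV-PDGF-D libraries lay above all AAV-GFP libraries for 8 of the 42 genes (19.0%, against 27.3% of all rows) and below them for 18 (42.9%, against 16.4% of all rows). The log2 fold changes, AAV-PDGF-D over AAV-GFP on the log2(FPKM + 0.1) scale, ran from -0.48 to 0.54 with a median of -0.079, and the median over all rows was 0.037. Of the 42, 29 were below 0 (69.0%), as were 43.2% of all rows. The respiratory chain scaling shifts every log2 fold change by nearly the same amount. It moved the median of all rows to -0.095 and that of the lysosomal genes to -0.21. The 55 respiratory chain genes that it sets equal were themselves shifted in the table as deposited, with 18 higher, 0 lower and a median log2 fold change of 0.13. These counts and medians describe a list chosen by name.

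**Figure D2:**
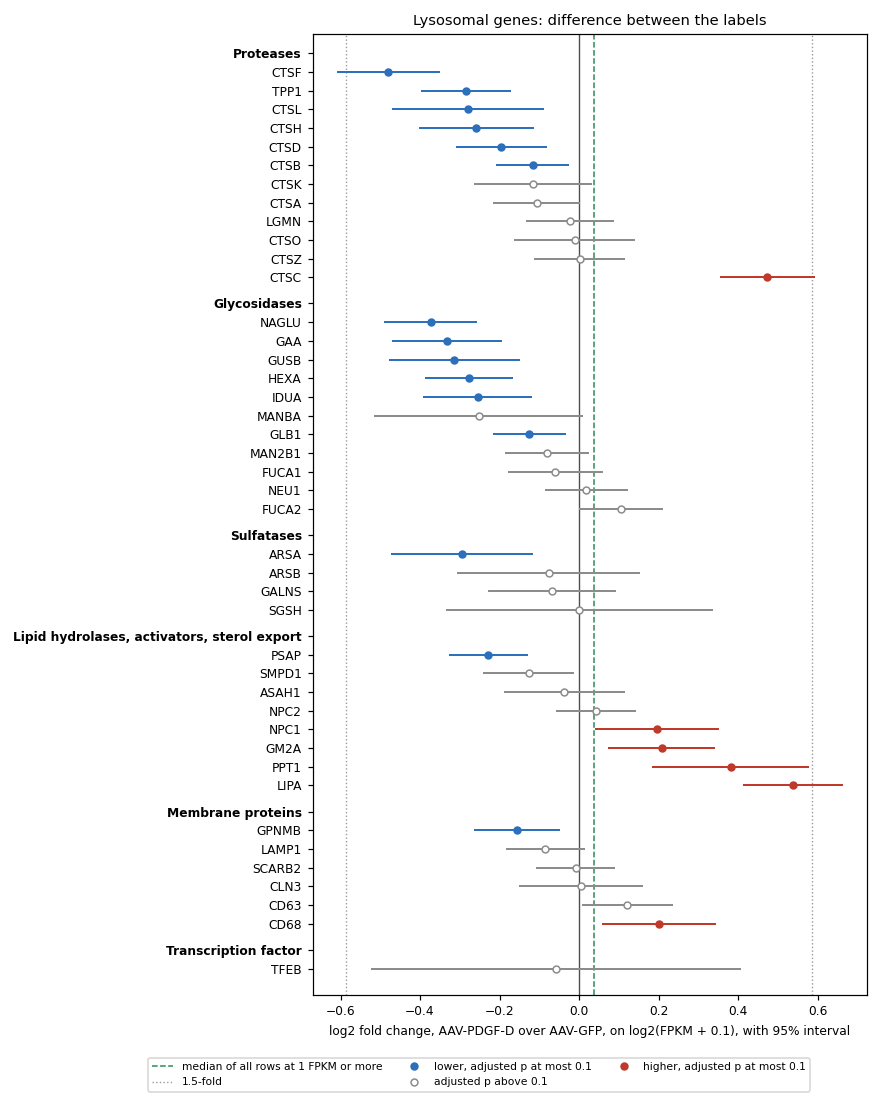
Log2 fold change, AAV-PDGF-D over AAV-GFP, with its 95% interval for the 42 lysosomal genes with a mean of at least 1 FPKM, grouped by role. Red points (6) are higher and blue points (15) lower at an adjusted p of at most 0.1, open points (21) did not pass, and every point lies between the dotted lines that mark 1.5-fold, from CTSF at -0.48 to LIPA at 0.54.

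Among the 12 proteases, 6 were lower, 1 was higher and 5 did not pass (median log2 fold change -0.12). These are 50% lower and 8.33% higher, against 11.7% and 20.9% of all rows. CTSF (ENSG00000174080), the cysteine protease cathepsin F, was at 35.4, 32.5 and 32.0 FPKM in AAV-PDGF-D and at 48.1, 45.6 and 45.8 FPKM in AAV-GFP libraries. No AAV-PDGF-D library reached the lowest AAV-GFP library, and the log2 fold change of CTSF was -0.48 (SE 0.06, adjusted p = 0.00208), the lowest in the set. TPP1, a tripeptidyl peptidase whose loss causes a childhood form of neuronal ceroid lipofuscinosis with retinal degeneration, was at 96.4, 105 and 104 FPKM in AAV-PDGF-D and at 127, 121 and 124 FPKM in AAV-GFP libraries. The groups were apart, with a log2 fold change of -0.28 (SE 0.05, adjusted p = 0.00693). CTSC (ENSG00000109861), the dipeptidyl peptidase that activates the serine proteases of immune cell granules, went the other way, at 67.8, 71.9 and 74.4 FPKM in AAV-PDGF-D and at 51.7, 52.6 and 49.6 FPKM in AAV-GFP libraries. Its log2 fold change was 0.47 (SE 0.05, adjusted p = 0.00167), and it was the protease of the set that passed as higher.

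The most abundant proteases fell by smaller amounts. CTSD, which degrades opsin and many other proteins in RPE lysosomes, was at 1279, 1229 and 1179 FPKM in AAV-PDGF-D and at 1399, 1369 and 1453 FPKM in AAV-GFP libraries. All AAV-PDGF-D values were lower, with a log2 fold change of -0.20 (SE 0.05, adjusted p = 0.0270). CTSB, the cysteine protease cathepsin B, was at 388, 396 and 387 FPKM in AAV-PDGF-D and at 431, 427 and 412 FPKM in AAV-GFP libraries, a log2 fold change of -0.12 (adjusted p = 0.0714). CTSB did not pass when any AAV-PDGF-D library, AAV-GFP replicate 1 or AAV-GFP replicate 2 was left out. CTSK, a collagen-degrading cathepsin best known from osteoclasts, was at 12.5, 12.2 and 11.6 FPKM in AAV-PDGF-D and at 12.7, 13.0 and 13.6 FPKM in AAV-GFP libraries. The groups did not overlap, yet CTSK did not pass (log2 fold change -0.12, 95% interval -0.262 to 0.0298, adjusted p = 0.234). CTSH and CTSL, further cysteine cathepsins, had log2 fold changes of -0.26 and -0.28 (adjusted p = 0.0243 and 0.0466), and CTSA, LGMN, CTSO and CTSZ did not pass, with log2 fold changes between -0.11 and 0.0017. CTSL did not pass without AAV-PDGF-D replicate 1 or 3 or AAV-GFP replicate 3. Whether reads of CTSL were split with those of its close paralog CTSV was not tested.

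Of the 11 glycosidases, which cut sugars from glycoproteins, glycolipids and glycosaminoglycans, 6 were lower, 0 were higher and 5 did not pass (median log2 fold change -0.25). This class had the lowest median in the set. Its share of lower genes was 54.5%, against 11.7% of all rows, while 20.9% of all rows were higher. NAGLU (ENSG00000108784), an enzyme of heparan sulfate breakdown, was at 39.3, 39.6 and 37.0 FPKM in AAV-PDGF-D and at 49.2, 49.0 and 51.9 FPKM in AAV-GFP libraries. Its groups lay well apart, with a log2 fold change of -0.37 (SE 0.05, adjusted p = 0.00325). GAA, the acid alpha-glucosidase that degrades glycogen in lysosomes, was at 33.4, 32.4 and 30.9 FPKM in AAV-PDGF-D and at 39.2, 39.3 and 43.4 FPKM in AAV-GFP libraries, a log2 fold change of -0.33 (SE 0.06, adjusted p = 0.00837). GUSB, beta-glucuronidase, was at 19.8, 19.5 and 22.1 FPKM in AAV-PDGF-D and at 24.9, 24.3 and 27.1 FPKM in AAV-GFP libraries. Again the groups did not overlap (log2 fold change -0.31, SE 0.07, adjusted p = 0.0189).

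GLB1 and MAN2B1 were the most abundant glycosidases. GLB1, the beta-galactosidase used as a stain for senescent cells, was at 88.5, 87.1 and 88.8 FPKM in AAV-PDGF-D and at 98.1, 95.8 and 94.5 FPKM in AAV-GFP libraries. The values were separate and the change was small, -0.12 on the log2 scale (adjusted p = 0.0587), and GLB1 did not pass without AAV-PDGF-D replicate 2 or 3 or without AAV-GFP replicate 1 or 2. MAN2B1, an alpha-mannosidase, was at 84.5, 90.8 and 85.6 FPKM in AAV-PDGF-D and at 91.2, 90.7 and 94.0 FPKM in AAV-GFP libraries, and these overlapped (adjusted p = 0.240). IDUA, which removes iduronic acid from heparan and dermatan sulfate, passed at a log2 fold change of -0.25 (adjusted p = 0.0203). MANBA, FUCA1, FUCA2 and NEU1 did not pass, with log2 fold changes of -0.25, -0.06, 0.11 and 0.02, and the interval of MANBA was wide (-0.513 to 0.00808).

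HEXA, a subunit of beta-hexosaminidase, and the activator protein GM2A take part in the breakdown of GM2 ganglioside. HEXA was at 73.6, 78.2 and 76.3 FPKM in AAV-PDGF-D and at 93.6, 88.0 and 94.6 FPKM in AAV-GFP libraries. No AAV-PDGF-D library of HEXA reached the AAV-GFP range (log2 fold change -0.28, SE 0.05, adjusted p = 0.00734). GM2A went the other way, at 15.9, 15.7 and 15.1 FPKM in AAV-PDGF-D and at 13.4, 13.1 and 13.8 FPKM in AAV-GFP libraries, a log2 fold change of 0.21 (adjusted p = 0.0391). GM2A did not pass without AAV-PDGF-D replicate 2, without AAV-GFP replicate 2 or under respiratory chain scaling. HEXA and GM2A were singled out after their values were seen.

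Of the 4 sulfatases, 1 was lower (25%, against 11.7% of all rows) and 3 did not pass (median log2 fold change -0.072). ARSA, the arylsulfatase that degrades the myelin lipid sulfatide, was at 25.8, 23.1 and 22.3 FPKM in AAV-PDGF-D and at 28.3, 27.5 and 31.6 FPKM in AAV-GFP libraries. Its groups did not overlap (log2 fold change -0.29, SE 0.08, adjusted p = 0.0310). GALNS, a sulfatase of keratan sulfate, was at 22.8, 21.3 and 20.4 FPKM in AAV-PDGF-D and at 23.4, 20.9 and 23.4 FPKM in AAV-GFP libraries, with overlap (adjusted p = 0.529). ARSB and SGSH, which act on dermatan and heparan sulfate, had log2 fold changes of -0.08 and 0.00018 with adjusted p of 0.632 and 0.999, and the interval of SGSH, from -0.333 to 0.333, leaves changes of that size undetectable here.

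The lipid hydrolases, their activators and the sterol exporters were the class with the most higher genes, at 4 higher, 1 lower and 3 not passing of 8. These are 50% higher and 12.5% lower, against 20.9% and 11.7% of all rows. The median log2 fold change of the class was 0.12, which turned to -0.012 under respiratory chain scaling. LIPA (ENSG00000107798), the lysosomal acid lipase that releases cholesterol and fatty acids from cholesteryl esters and triglycerides, was at 78.2, 78.3 and 81.4 FPKM in AAV-PDGF-D and at 55.6, 57.2 and 51.1 FPKM in AAV-GFP libraries. Every AAV-PDGF-D library was far above every AAV-GFP library, and the log2 fold change of LIPA was the highest in the set, 0.54 (SE 0.05, adjusted p = 0.00127). PPT1, the thioesterase that removes palmitate from proteins, was at 30.8, 35.0 and 37.0 FPKM in AAV-PDGF-D and at 28.5, 26.1 and 24.2 FPKM in AAV-GFP libraries. The groups were separate by a narrow gap, with a log2 fold change of 0.38 (SE 0.08, adjusted p = 0.0180), which missed the threshold only under respiratory chain scaling (adjusted p = 0.102).

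NPC2 and NPC1 hand cholesterol on in sequence, NPC2 as the soluble carrier and NPC1 as the membrane protein that exports it. NPC1 was at 45.4, 41.5 and 47.5 FPKM in AAV-PDGF-D and at 41.0, 39.7 and 36.5 FPKM in AAV-GFP libraries. The lowest AAV-PDGF-D library was just above the highest AAV-GFP library, and the log2 fold change of 0.20 (SE 0.07, adjusted p = 0.0740) did not pass under any of the 3 other scalings or without AAV-PDGF-D replicate 1 or 3 or AAV-GFP replicate 2 or 3. NPC2 was at 409, 401 and 429 FPKM in AAV-PDGF-D and at 403, 391 and 407 FPKM in AAV-GFP libraries, with overlap (log2 fold change 0.04, 95% interval -0.0549 to 0.141, adjusted p = 0.520). PSAP, the most abundant gene of the set, was at 1483, 1422.5 and 1465 FPKM in AAV-PDGF-D and at 1738, 1688 and 1692 FPKM in AAV-GFP libraries. It was lower in every AAV-PDGF-D library, with a log2 fold change of -0.23 (SE 0.04, adjusted p = 0.00969). SMPD1, acid sphingomyelinase, had a log2 fold change of -0.13 and missed the threshold (adjusted p = 0.102), and ASAH1, acid ceramidase, had -0.04 (adjusted p = 0.731).

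**Figure D3:**
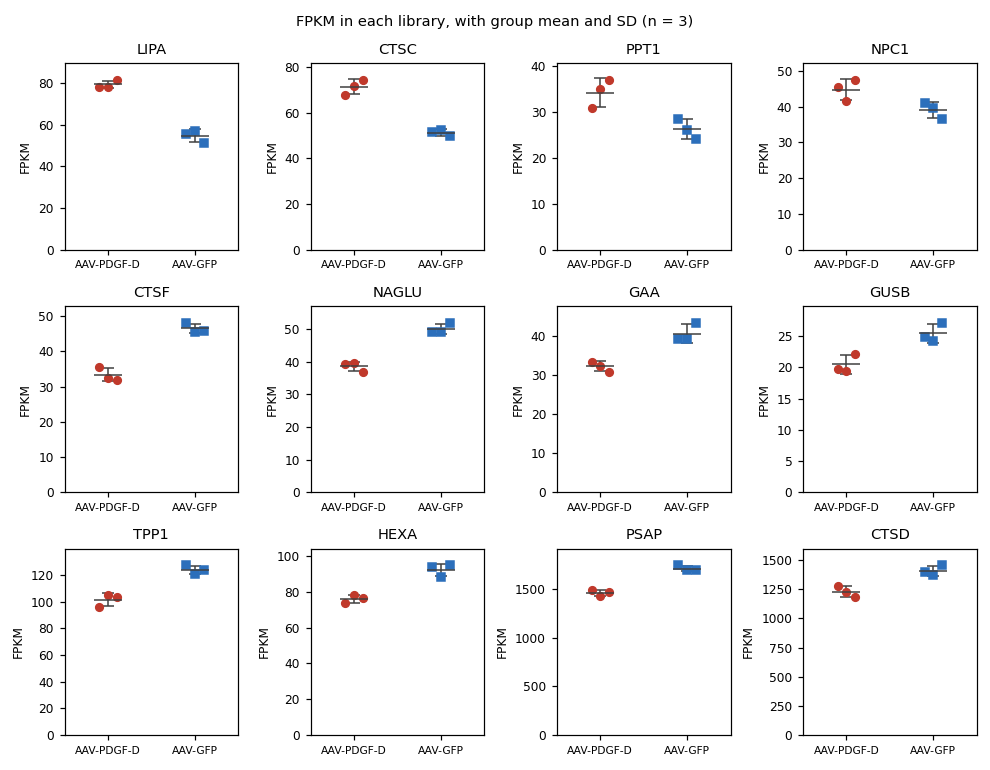
FPKM in each library for 12 lysosomal genes, on axes that start at 0, with red circles for AAV-PDGF-D, blue squares for AAV-GFP, and the group mean ± SD (n = 3) in grey. LIPA, CTSC, PPT1 and NPC1 are higher and the other 8 lower in AAV-PDGF-D libraries, with the closest groups in NPC1, where 41.5 FPKM in AAV-PDGF-D replicate 2 stands beside 41.0 FPKM in AAV-GFP replicate 1.

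The 6 membrane proteins differed little between labels, with 1 higher, 1 lower and 4 not passing (median log2 fold change -0.0012). Each direction held 16.7% of them, against 20.9% higher and 11.7% lower over all rows. CD63, a tetraspanin of late endosomes and exosomes, was at 728, 723 and 734 FPKM in AAV-PDGF-D and at 664, 636 and 710 FPKM in AAV-GFP libraries. These did not overlap, but CD63 missed the threshold (log2 fold change 0.12, adjusted p = 0.120), and its log2 fold change was -0.011 under respiratory chain scaling. LAMP1, the classical marker of lysosome membranes, was at 196, 197 and 206 FPKM in AAV-PDGF-D and at 216, 205 and 214 FPKM in AAV-GFP libraries, with overlap (log2 fold change -0.08, 95% interval -0.181 to 0.0120, adjusted p = 0.195). SCARB2, the receptor that carries glucocerebrosidase to lysosomes, and CLN3 had log2 fold changes of -0.01 and 0.01, with overlapping libraries.

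CD68, a sialomucin of lysosomes that is widely used as a macrophage marker, was at 21.5, 20.2 and 21.1 FPKM in AAV-PDGF-D and at 17.1, 18.6 and 19.0 FPKM in AAV-GFP libraries (log2 fold change 0.20, SE 0.06, adjusted p = 0.0531). The groups were separate, and CD68 did not pass under any of the 3 other scalings or without AAV-PDGF-D replicate 1 or 3 or AAV-GFP replicate 1. Of 17 macrophage markers, 14 had a row, and 12 of these were under 1 FPKM in every library. The sum of the macrophage markers, nearly all from CD74, was 26.2 to 29.6 FPKM in AAV-PDGF-D and 27.5 to 27.9 FPKM in AAV-GFP libraries. Without CD74 it was 1.46 to 2.53 FPKM in AAV-PDGF-D and 2.11 to 2.94 FPKM in AAV-GFP libraries. PTPRC, the common leukocyte antigen, averaged 0.0315 FPKM, and CSF1R, the receptor of macrophage colony-stimulating factor, was lower at 0.605, 0.819 and 0.669 FPKM in AAV-PDGF-D, against 1.05, 1.75 and 1.60 FPKM in AAV-GFP libraries (adjusted p = 0.0230). The part of macrophages in the CD68 difference was not tested.

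GPNMB, a glycoprotein of lysosomes and of melanosomes, the pigment organelles related to them, was at 462, 469 and 486 FPKM in AAV-PDGF-D and at 537, 501 and 542 FPKM in AAV-GFP libraries. All AAV-PDGF-D libraries were lower (log2 fold change -0.16, SE 0.05, adjusted p = 0.0487), and the call was lost without AAV-PDGF-D replicate 1 or 2 or AAV-GFP replicate 1 or 3. The melanosome matrix gene PMEL moved further, at 36.3, 38.0 and 35.8 FPKM in AAV-PDGF-D and at 67.4, 54.7 and 76.7 FPKM in AAV-GFP libraries (log2 fold change -0.84, adjusted p = 0.00293), and TYRP1, a melanin synthesis enzyme, had a log2 fold change of -0.80 (adjusted p = 0.0124). Of the 10 RPE markers with a mean of at least 1 FPKM, 5 were lower and 1, KRT8, was higher with no fold minimum. Over all rows 11.7% were lower and 20.9% higher. Of the 10 RPE markers, 7 had a log2 fold change below 0, against 43.2% of all rows. Their sum over all 16 genes went the other way, at 2535 to 2633 FPKM in AAV-PDGF-D and 2449 to 2519 FPKM in AAV-GFP libraries, as most of it came from the keratin genes KRT8 (1363 FPKM in AAV-PDGF-D and 1191 FPKM in AAV-GFP libraries) and KRT18 (796 FPKM in AAV-PDGF-D and 743 FPKM in AAV-GFP libraries). Fibroblast markers summed to 4916 to 5006 FPKM in AAV-PDGF-D and 5149 to 5230 FPKM in AAV-GFP libraries, nearly all of it VIM (4710 FPKM in AAV-PDGF-D and 4902 FPKM in AAV-GFP libraries), and of the 9 genes 4 were lower (COL1A2, COL3A1, DCN and LUM) and 1, THY1, was higher. Pericyte and smooth muscle markers summed to 1800 to 1879 FPKM in AAV-PDGF-D and 1907 to 2081 FPKM in AAV-GFP libraries, with 1 higher and 2 lower of 7. Of 8 endothelial markers, 7 were under 1 FPKM in every library, and the sum, mostly KDR, was 8.95 to 9.83 FPKM in AAV-PDGF-D and 10.9 to 11.1 FPKM in AAV-GFP libraries, without overlap. Whether the makeup of cells has a part in the lysosomal differences was not tested.

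TFEB, the regulator of many lysosomal genes, was low and did not pass. It was at 1.92, 1.85 and 1.15 FPKM in AAV-PDGF-D and at 1.78, 1.57 and 1.67 FPKM in AAV-GFP libraries, with AAV-PDGF-D replicate 3 the lowest and the groups overlapping. The log2 fold change was -0.06 with an interval of -0.521 to 0.404 (adjusted p = 0.872), which does not shut out a change of up to that size in either direction. MITF, of the same family, averaged 33.7 FPKM and had a log2 fold change of 0.07 (adjusted p = 0.353).

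Other genes of the lysosomal pathway were taken from lists of related function. Of 29 further hydrolases, 0 were called higher and 2 lower at the study's thresholds, against 2.01% and 1.75% of all rows. With no fold minimum 4 were higher and 4 lower (median log2 fold change -0.046). Each direction then held 13.8%, against 20.9% higher and 11.7% lower over all rows. CTSV, cathepsin V, was at 25.1, 24.8 and 25.6 FPKM in AAV-PDGF-D and at 43.7, 44.0 and 54.9 FPKM in AAV-GFP libraries, a log2 fold change of -0.91 (SE 0.09, adjusted p = 0.00124). ACP5, the tartrate-resistant acid phosphatase of osteoclasts and macrophages, was at 8.58, 10.5 and 9.52 FPKM in AAV-PDGF-D and at 13.3, 15.0 and 16.3 FPKM in AAV-GFP libraries. The groups of CTSV and of ACP5 were far apart, and the log2 fold change of ACP5, -0.64 (SE 0.10, adjusted p = 0.00541), was -0.57 and thus short of 1.5-fold without AAV-PDGF-D replicate 1 or without AAV-GFP replicate 3.

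No subunit of the proton pump that acidifies the lysosome, the V-ATPase, was called at the study's thresholds. With no fold minimum 5 of 16 were higher and 1 lower (median log2 fold change 0.093, and -0.040 under respiratory chain scaling). That is 31.25% higher and 6.25% lower, against 20.9% and 11.7% of all rows. ATP6V1G1, the most abundant subunit gene at 180 FPKM, had a log2 fold change of 0.22 (adjusted p = 0.0285), and ATP6V0E2 had 0.31 (adjusted p = 0.0440). ATP6V1C2, at 4.72 FPKM, had -0.36 (adjusted p = 0.0589). Without AAV-PDGF-D replicate 2 or without AAV-GFP replicate 3, neither ATP6V0E2 nor ATP6V1C2 passed, as was so for ATP6V0E2 without AAV-GFP replicate 2 and for ATP6V1C2 without AAV-PDGF-D replicate 1. TPM scaling and median-of-ratios scaling each gave 4 higher and 1 lower, and respiratory chain scaling gave 0 higher and 3 lower. The shares of all rows were 15.9% and 13.7% with TPM scaling and 15.9% and 15.5% with median-of-ratios scaling. Over all rows, respiratory chain scaling gave 6.08% higher and 22.4% lower.

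Among 28 other membrane proteins and transporters, 2 were higher and 6 lower with no fold minimum (median log2 fold change -0.035). These are 7.14% and 21.4%, against 20.9% and 11.7% of all rows. GRN, which encodes progranulin, a partner of prosaposin in lysosomes, was the most abundant at 479 FPKM. It was at 439, 439 and 420 FPKM in AAV-PDGF-D and at 524, 502 and 548 FPKM in AAV-GFP libraries, a log2 fold change of -0.28 (SE 0.05, adjusted p = 0.00672), so that PSAP and GRN were both lower. SIDT2, a lysosomal membrane protein, had a log2 fold change of -0.43 (adjusted p = 0.00730), and SLC29A3, a nucleoside transporter, had -0.48 (adjusted p = 0.0831). GRN and SIDT2 passed under each alternative tried, and SLC29A3 did not pass without AAV-PDGF-D replicate 1 or 2 or AAV-GFP replicate 1 or 3.

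In the machinery that tags and sorts hydrolases, 4 of 14 genes were higher (28.6%) and 0 lower, against 20.9% and 11.7% of all rows. The median log2 fold change was 0.012, and below 0 under each other scaling. AP1B1, a subunit of the adaptor that packs hydrolase receptors into vesicles, had a log2 fold change of 0.27 (adjusted p = 0.0124), and SUMF2, a relative of the enzyme that activates sulfatases and the most abundant of the list at 196 FPKM, had 0.23 (adjusted p = 0.00740). Of 17 genes that control TFEB or form the mTORC1 complex on lysosomes, which holds TFEB in the cytoplasm, 5 were higher and 1 lower. These are 29.4% and 5.88%, against 20.9% and 11.7% of all rows. The median log2 fold change of the 17 was 0.013, and below 0 under each other scaling. RPTOR, the scaffold subunit of mTORC1, had a log2 fold change of 0.40 (adjusted p = 0.0376), LAMTOR3 of its lysosomal anchor had 0.29 (adjusted p = 0.0212), and RHEB, the GTPase that activates mTORC1 and the most abundant at 91.9 FPKM, had 0.24 (adjusted p = 0.0231). RPTOR did not pass without AAV-PDGF-D replicate 3 or without AAV-GFP replicate 3. None of these 17 passed without both libraries that hold hemoglobin, and under respiratory chain scaling 0 of 17 passed as higher and 6 as lower. Over all rows, 9.58% passed as higher and 4.76% as lower without those libraries. Under respiratory chain scaling these shares were 6.08% and 22.4%.

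Of 3 cystatins, inhibitors of cysteine cathepsins, 1 was higher, CSTB, with a log2 fold change of 0.27 (adjusted p = 0.0345, not passing without AAV-GFP replicate 1), while CST3, the secreted cystatin C at 390 FPKM, had -0.16 and did not pass (adjusted p = 0.120). Autophagy receptors and core factors, which deliver cell contents to lysosomes, held 1 higher and 6 lower of 26 (median log2 fold change -0.074). That is 3.85% higher and 23.1% lower, against 20.9% and 11.7% of all rows. ULK1, the kinase that starts autophagy, had a log2 fold change of -0.33 (adjusted p = 0.0138), ATG14 had -0.26 (adjusted p = 0.0259), and SQSTM1, a cargo receptor and the most abundant at 321 FPKM, had -0.20 and did not pass (adjusted p = 0.107). Without both libraries that hold hemoglobin, 0 of these 26 passed, against 9.58% of all rows as higher and 4.76% as lower.

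**Figure D4:**
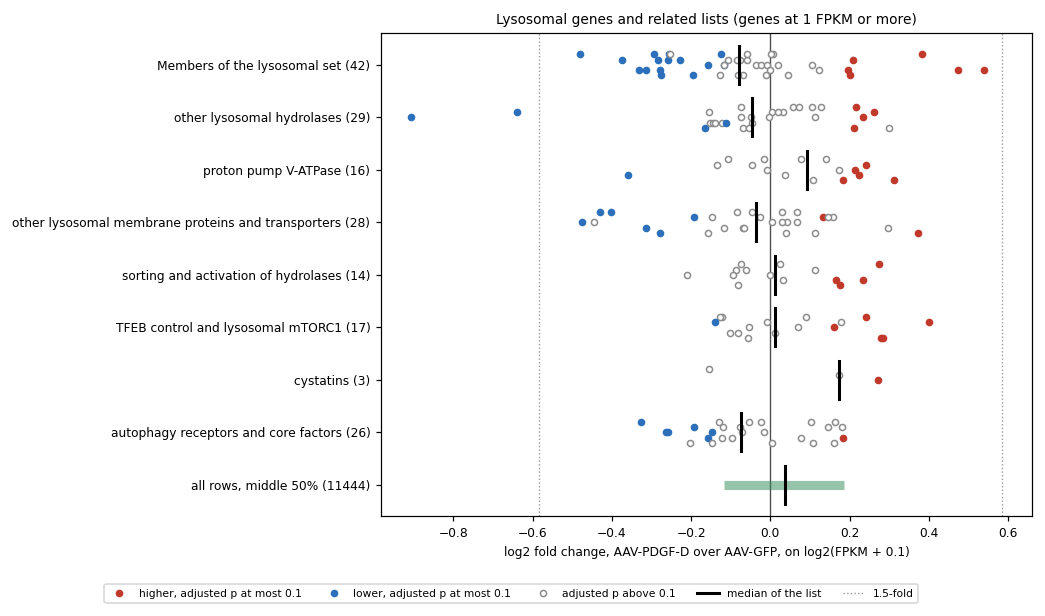
Log2 fold change, AAV-PDGF-D over AAV-GFP, of each gene with a mean of at least 1 FPKM in the lysosomal set and 7 related lists, with a black bar at the median of each list and, in the last row, the middle 50% of all 11444 rows in green. Only CTSV (-0.91) and ACP5 (-0.64) lie beyond the dotted 1.5-fold lines, and the medians run from -0.079 in the lysosomal set to 0.17 in the cystatins, against 0.037 over all rows.

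Of the 21 lysosomal genes that passed with no fold minimum, 8 passed under all 16 alternatives (CTSC and LIPA, higher, and CTSF, TPP1, GAA, GUSB, HEXA and NAGLU, lower), and 14 passed when any single library was left out. PSAP, CTSD, CTSH, IDUA and ARSA lost their call only without both libraries that hold hemoglobin, where 2 libraries per group remain. With 3 libraries a side, the lowest p that an exact permutation test allows is 0.1, so these calls rest on the spread that limma shares across genes.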

How the data were processed

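By the study's account, poly(A) RNA of RPE-choroids was sequenced in 6 libraries, 3 per label. Per the methods and the submitters' processing notes, the authors used STAR 2.4.2a with build mm10 of the mouse, and the deposited FPKM per gene came from RSEM 1.2.29. The rows of the deposited table are nevertheless human genes, and the sources used here do not give the build and annotation behind them. As the table holds FPKM without counts, the count test of the methods (DESeq2) could not be run and the depth is unknown.

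From the FPKM, log2(FPKM + 0.1) was compared with limma 3.58.1 in R 4.3.3, with a variance trend, over the 13821 rows that averaged 0.1 FPKM or more, with Benjamini-Hochberg adjustment over all of them. A call needed an adjusted p no higher than 0.1, a change of 1.5-fold and an average of 1 FPKM or more, and separately with no fold minimum. A fold change on this scale understates that of low genes. The code was tested on simulated data. Every sample column was used (0 left out).

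The members and lists were chosen with earlier results of these data known. Values per library are given for the 3 largest changes that passed and the 2 highest means in each class, and for LAMP1, CD63, CD68, GPNMB, CTSD, CTSK, NPC1 and TFEB. HEXA, GM2A, CTSS and the genes set beside GPNMB and CD68 were added outside this rule, HEXA and GM2A after their values were seen. In other lists, called genes, or the 2 largest changes that passed, and the highest mean are named, except where a gene is not reported here. Alternatives were other pseudocounts, filters, scalings (TPM, median-of-ratios, respiratory chain genes), no variance trend, a replicate block and left-out libraries.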

Additional observations from a re-analysis of the deposited data

How the results depend on the processing

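With no fold minimum, 6 genes were higher and 15 lower, against 20.9% and 11.7% of all rows. Respiratory chain scaling gave 2 higher and 23 lower, a median log2 fold change of -0.211 and 1 gene called lower at 1.5-fold, CTSF at -0.61. This scaling lowers every log2 fold change by nearly the same amount. Over all rows, respiratory chain scaling gave 6.08% higher and 22.4% lower. Without both libraries that hold hemoglobin, 3 were higher and 6 lower, with 2 libraries per group left. The shares over all rows were then 9.58% and 4.76%. Leaving out any single library gave 4 to 6 higher and 12 to 14 lower, with a median of -0.108 to -0.0635. Of all rows, 13.7% to 20.7% were then higher and 7.38% to 10.5% lower. TPM scaling gave 4 and 18, median-of-ratios scaling 4 and 19, and no variance trend 5 and 11. The shares of all rows were 15.9% and 13.7%, 15.9% and 15.5%, and 16.3% and 8.90%. The other pseudocounts and filters gave 6 or 7 higher and 15 or 16 lower, against 19.3% to 22.2% and 10.3% to 12.5% of all rows. Over the 16 alternatives, 56 gene calls were lost, 22 were gained and 0 turned round, and NPC1 (10 lost), CD68 (8) and CTSB (8) were the least stable.

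A replicate block (the number in the labels) left 3 genes higher and 13 lower, against 15.8% and 8.77% of all rows. The deviations of same-numbered libraries had correlations of -0.202, 0.00389 and -0.135. With 3 libraries per group, these values cannot settle whether the numbers pair the libraries.

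FPKM without counts give no counting error, so the limit on low genes such as TFEB and CTSS is the spread of 3 libraries. Human rows under mouse labels and a PDGFD row that was not higher limit what the labels can be taken to mean.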
